A study of Drosophila melanogaster with 8 samples.

Results

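Structural cuticle protein genes were followed through the female reproductive tract of Drosophila melanogaster, in spermathecae and in the lower tract, with and without a mutation in the gene for the nuclear receptor Hr39. They were chosen by symbol, as probe sets with 1 gene symbol that begins with Cpr and a digit, Ccp84, Lcp, Twdl, Acp65 or Edg, or that is Pcp. This gave 107 probe sets of 105 genes among the 18769 probe sets on the arrays that are not controls. Of the 107, 67 were Cpr, 24 Twdl, 8 Lcp, 3 Ccp84, 3 Edg, 1 Acp65 and 1 Pcp. The current annotation holds 125 genes that fit the same names, and a further 6 probe sets that list a cuticle symbol beside another symbol were not used here.

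Insect cuticle is a layer of chitin fibres and proteins that epithelia of ectodermal origin secrete on their outer face. Most of its structural proteins belong to the CPR family, which shares the chitin-binding Rebers and Riddiford consensus, while Tweedle (Twdl) proteins form a family first known from a mutant with an altered body shape. The Lcp, Pcp and Acp genes were named for larval, pupal and adult cuticle and the Edg genes for their dependence on the moulting hormone ecdysone, and in the female the tract and the hardened capsule of the spermatheca are lined with cuticle.

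Total RNA was taken from mated adult females 4 days old, from the spermathecae (the organs that store sperm) or from the lower tract after these were removed. In each organ the groups were wild type, with no strain named, and Hr39(04443), so genotype and strain background cannot be told apart. Each of the 4 groups had 2 arrays, an original and a duplicate. The labels do not say that these came from separate animals, so the p-values reflect the spread between these arrays alone, and that spread may be technical. In whole organs, fewer cells of a type and less RNA per cell cannot be told apart.

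Signals are MAS5 intensities, on a linear scale that allows a probe set to be compared between arrays but not with another probe set. A probe set was tested when both arrays of at least 1 group reached the median of their own array, which was 17.7 to 22.5. Differences are of log2(signal + 4), which understates changes of dim probe sets, and standard errors (SE) come from 1 limma fit over all 8 arrays. A difference was called when its two-sided p was below 0.05 after Benjamini-Hochberg adjustment, which ran over all 10113 tested probe sets.

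Of 8 probe sets of 5 genes listed as spermathecal markers, 7 were called higher in the spermathecae than the lower tract of the wild type, and 1, of Gld, lower. The protease gene Send1 read 13277 to 18915 on the spermatheca arrays and 181 to 2194 on the others. For Hr39 itself, the probe set 1630002_s_at read 821 and 725 in wild-type and 477 and 452 in mutant spermathecae (log2 difference -0.73, SE 0.177, limma adjusted p = 0.0351). That call was lost in 5 of 8 fits with 1 array left out. None of its other 3 probe sets was called. Of these, 1631402_s_at (517 and 570 against 382 and 347) and 1632845_at (24.3 and 21.4 against 14.6 and 12.2) read lower in the mutant, and 1628556_s_at overlapped. Where these probes lie relative to the 04443 lesion is not given in the sources used here. Libraries also stood apart from the rest. The 3' to 5' ratio of the Gapdh control was 5.87 on wild-type spermathecae replicate 1, against 2.46 to 4.05 on the other arrays. It was 3.81 and 4.05 in mutant spermathecae and 2.46 to 2.88 in the lower tract. The ratio of the EIF-4A control was 3.06 to 3.35 on the spermatheca arrays and 2.75 to 2.94 on the lower tract arrays. That ratio thus went with the organ, and its part in the organ differences was not tested. On wild-type lower tract replicate 1 the signals of 11 germline probe sets summed to 4051, against 989 to 1652 elsewhere.

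Most cuticle genes gave little signal in either organ. Of the 107 probe sets, 62 did not reach the median on both arrays of any group, and their values had a median of 4.5 and a highest value of 42.3. These included every Ccp84 probe set, 17 of the 24 Twdl and 35 of the 67 Cpr. The other 45, of 44 genes, were tested, which is 42.1% of the cuticle probe sets against 53.9% of all. In wild-type spermathecae 22.4% of the 107 were at or above the median on both arrays and in the mutant 18.7%, while in the lower tract the shares were 28% and 31.8%. All probe sets had shares of 45.2% to 46.7%. Of the 45, 17 were tested only through their signal in lower tract groups, 5 only through spermatheca groups and 23 through both organs. A difference between organs in those first 22 was therefore favoured by the filter itself.

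**Figure D1:**
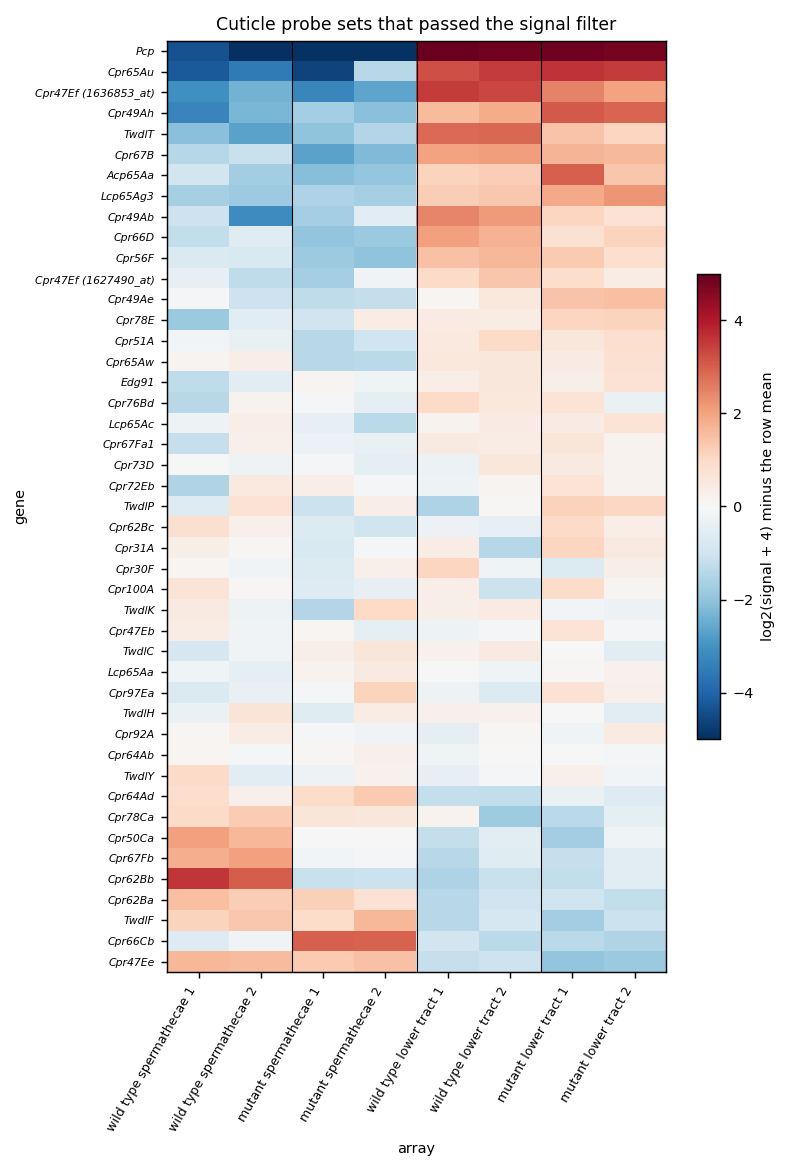
Signal of the 45 cuticle probe sets tested, as log2(signal + 4) minus the mean of the row, with 1 column per array in the 4 groups and colours limited at 5 log2 units either way. Rows such as Pcp, Cpr65Au and TwdlT were above their mean on the lower tract arrays, and Cpr62Ba, Cpr47Ee and TwdlF on the spermatheca arrays.

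In the wild type the organs differed in many of their cuticle genes. Of the 45 tested, 25 were called, 9 higher in the spermathecae and 16 higher in the lower tract. The share of all tested probe sets called in this comparison was 43.7%, with 22.2% higher and 21.5% lower in the spermathecae. With no filter, 24 of all 107 were called (22.4%), against 21.1% of all probe sets, and the median log2 difference was -0.09 against 0.02. Of the 24, 9 were higher and 15 lower, where 10.5% and 10.6% of all probe sets were. The arrays of the organs did not overlap for 30 of the 107 that were higher in the spermathecae and 34 that were lower, or 28% and 31.8%, against 28.4% and 26.4% of all probe sets. As shares of the 45 tested, 55.6% were called and 35.6% were lower in the spermathecae, which is above the shares of all tested probe sets, while over all 107 the shares called differed less from those of all probe sets. The filter favoured the lower direction for the 17 of the 45 tested only through lower tract groups. It favoured the higher direction for the 5 tested only through spermatheca groups.

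Of the 16 called higher in the lower tract, 6 were at or above the array median in both organs, and the rest were below it on at least 1 spermatheca array. Pcp, the pupal cuticle protein gene, which lies inside an intron of Gart on the opposite strand, gave 5190 and 4784 in the lower tract of the wild type and 4.25 and 0.926 in its spermathecae. In the mutant it read 4921 and 4722 in the lower tract and 1.57 and 1.51 in spermathecae. No spermatheca array came near any lower tract array, and the log2 difference was -9.61 (SE 0.24, limma adjusted p = 1.25e-08) in the wild type and -9.77 in the mutant (adjusted p = 2.54e-08). Its size depends on the number added before the log, at -11.29 with none and -7.79 with 20 in the wild type.

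Cpr65Au, a CPR gene of the cluster at 65A, gave 5689 and 6855 in the lower tract of the wild type and 29 and 48.5 in wild-type spermathecae. In the mutant, the values were 7408 and 6822 against 20.5 and 229, so the mutant spermatheca arrays differed widely from each other. The log2 difference between organs was -7.23 (SE 0.766, limma adjusted p = 4.29e-05) in the wild type and -6.56 in the mutant.

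TwdlT was the Tweedle gene with a called excess in the lower tract. Its wild-type signals were 702 and 715 there and 19 and 11.3 in the spermathecae, a log2 difference of -5.25 (SE 0.284, limma adjusted p = 3.92e-07). In the mutant lower tract it read 261 and 203 and in mutant spermathecae 20.2 and 31.7, and the difference was -2.99. The organs did not overlap in either genotype, and the mutant lower tract lay below the wild-type lower tract.

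Cpr67B had signal in both organs and more in the lower tract. Its wild-type signals were 6515 and 6997 in the lower tract and 598 and 742 in the spermathecae, a difference of 10.1-fold (log2 -3.33, SE 0.182, limma adjusted p = 3.99e-07). In the mutant the readings were 5315 and 5045 against 250 and 346. Each lower tract array was therefore well above every spermatheca array.

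Cpr49Ah gave 192 and 232 in the lower tract of the wild type and 2.61 and 9.52 in wild-type spermathecae (log2 -4.51, SE 0.349, limma adjusted p = 4.79e-06). In the mutant it read 540 and 484 against 16.5 and 11.4. Cpr49Ab read 293 and 234 against 22.5 and 2.1 in the wild type (log2 -4.39) and 111 and 84.7 against 12.7 and 33.2 in the mutant (log2 -2.02). In the mutant the Cpr49Ab call did not hold without either lower tract array or spermathecae replicate 1 of that genotype, with adjusted p between 0.0641 and 0.159. Both genes are named for the chromosome band 49A, and their organs did not overlap in either genotype.

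Cpr47Ef has 2 probe sets, which both read higher in the lower tract but by different amounts. 1636853_at gave 892 and 815 in the lower tract of the wild type and 5.7 and 11.5 in wild-type spermathecae, with 442 and 324 against 4.43 and 8.95 in the mutant. 1627490_at read 36.8 and 50.5 against 11.5 and 4.55 in the wild type and 34.3 and 22.9 against 2.39 and 14.6 in the mutant. The log2 differences between the wild-type organs were -6.13 and -2.03. For 1627490_at the wild-type call was lost without replicate 2 of either wild-type organ (adjusted p 0.0823 to 0.0864). Its mutant call (log2 -1.56, limma adjusted p = 0.0437) was lost without any of the 4 lower tract arrays or mutant spermathecae replicate 1 (0.0576 to 0.299).

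Of the 8 Lcp probe sets, named for larval cuticle, 3 were tested and 1 was called between the wild-type organs, and the single adult gene Acp65Aa was called too. Acp65Aa, an adult cuticle gene, gave 164 and 178 in the lower tract of the wild type against 37.1 and 19.3 in the spermathecae (log2 -2.50, limma adjusted p = 0.0016). In the mutant it read 603 and 201 against 13.5 and 16.4 (log2 -4.23), and the mutant lower tract arrays lay far apart. Lcp65Ag3, a larval cuticle gene of the same cluster, gave 33.2 and 36.5 in the lower tract of the wild type, 55 and 69.9 in the mutant lower tract and 0.531 to 1.55 on the spermatheca arrays. Its log2 differences were -3.02 in the wild type and -3.64 in the mutant.

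Further CPR genes were called higher in the lower tract of both genotypes. Cpr66D gave 88.6 and 68.9 in the lower tract of the wild type and 5.51 and 10.5 in the spermathecae (log2 -2.81), and Cpr56F read 246 and 279 against 50.3 and 49.4 (log2 -2.30). Cpr51A (log2 -0.98) and Cpr49Ae (log2 -0.86) were closer between the wild-type organs, and the Cpr49Ae call was lost without replicate 2 of either wild-type organ (adjusted p 0.146 to 0.154). Cpr78E (log2 -1.58) and Edg91 (log2 -1.36), a gene found through its response to ecdysone, were called in the wild type only. The Cpr78E call was lost without any lower tract array or wild-type spermathecae replicate 1 (0.0598 to 0.214), and the Edg91 call without either wild-type lower tract array or wild-type spermathecae replicate 1 (0.0586 to 0.116).

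The spermathecae had a smaller set, led by Cpr62Bb. It read 3631 and 2459 in wild-type spermathecae and 101 and 138 in the wild-type lower tract, which is 24.5-fold (log2 4.61, SE 0.269, limma adjusted p = 6.5e-07). In mutant spermathecae it read 136 and 142 and in the mutant lower tract 128 and 210, so in the mutant the organs overlapped. The log2 difference between the mutant organs was -0.23, with a 95% interval of -0.83 to 0.37.

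Cpr47Ee was high in the spermathecae of both genotypes. It read 231 and 216 in wild-type and 178 and 198 in mutant spermathecae, against 28.7 and 32.4 in the wild-type and 14.7 and 16.4 in the mutant lower tract. The log2 differences between organs were 2.72 (SE 0.23, limma adjusted p = 8.89e-06) and 3.29. Cpr47Ee and Cpr47Ef thus lay on opposite sides of the organ comparison although both are in the run of CPR genes at 47E.

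Cpr62Ba read 211 and 176 in wild-type and 169 and 120 in mutant spermathecae, and 25.3 to 33.9 on the lower tract arrays. The differences between organs were 2.56 in the wild type (limma adjusted p = 4.14e-05) and 2.07 in the mutant. TwdlF, the Tweedle gene on the spermathecal side, read 33.2 and 39 in wild-type and 28 and 49.2 in mutant spermathecae and 1.15 to 5.54 in the lower tract (log2 2.34 and 2.67). For both genes every spermatheca array exceeded every lower tract array.

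The remaining spermathecal calls were of 5 CPR genes. Cpr67Fb read 303 and 355 in wild-type spermathecae and 29.8 and 52.8 in the lower tract (log2 2.92, 7.57-fold), and Cpr50Ca read 62 and 46.8 against 3.06 and 6.89 (log2 2.72). Cpr64Ad was called in both genotypes (log2 1.77 and 1.63), and the call was lost without wild-type spermathecae replicate 1 in the wild type (adjusted p 0.0507) and without replicate 2 of either mutant organ in the mutant (0.0563 to 0.0749). Cpr78Ca (log2 1.92) was called in the wild type, and not without either spermatheca array or without lower tract replicate 2 of that genotype (0.0757 to 0.193). Cpr66Cb (log2 0.73, limma adjusted p = 0.0364) lost its wild-type call without any of 6 arrays (0.0541 to 0.182), these being every mutant array and replicate 2 of each wild-type organ.

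In the mutant, 22 of the 45 were called between organs, 5 higher and 17 lower in the spermathecae, where 46.2% of all tested probe sets were called, 24.7% higher and 21.5% lower. With no filter 24 of the 107 were called, 6 higher and 18 lower, against 22.7% of all probe sets, 11.7% higher and 11% lower. Arrays did not overlap for 25 that were higher and 33 that were lower, against 31.3% and 28.3% of all probe sets. The wild-type and mutant comparisons share no array. The 19 probe sets called the same way in both make up 76% of the wild-type and 86.4% of the mutant calls, and 0 were called in opposite directions. Over all tested probe sets the same shares were 76.2% and 72.1%. Cpr50Ca, Cpr78Ca, Cpr62Bb, Cpr67Fb, Cpr78E and Edg91 were called in the wild type and not in the mutant, and Cpr65Aw, Lcp65Ac and Cpr62Bc in the mutant and not in the wild type. Of these 9, the difference between the organ effects was itself called for Cpr62Bb, Cpr67Fb and Cpr62Bc. The mutant calls lost with 1 array left out included Lcp65Ac (log2 -1.43), lost without either mutant lower tract array or mutant spermathecae replicate 2 (adjusted p 0.0796 to 0.173). That of Cpr62Bc was lost without mutant lower tract replicate 1 or mutant spermathecae replicate 2 (0.055 to 0.0898).

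**Figure D2:**
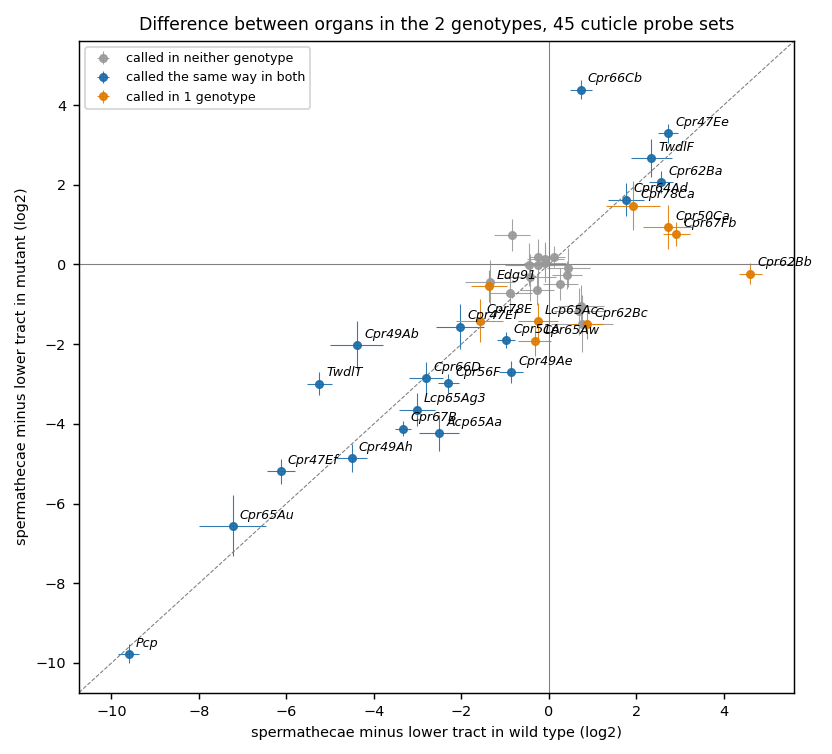
Spermathecae minus lower tract, as the difference of log2(signal + 4), in the wild type on the x axis and in the mutant on the y axis, for the 45 cuticle probe sets tested. Blue points were called the same way in both genotypes (19), orange points in 1 genotype and grey points in neither, and Cpr62Bb lies far right of the other orange points at 4.61 and -0.23.

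Markers of other tissues differed between the organs as well. The signals of 14 muscle probe sets summed to 6049 to 6970 on the spermatheca arrays and 61547 to 77259 on the lower tract arrays, and 14 of 14 in the wild type and 13 in the mutant were called lower in the spermathecae. Of all tested probe sets, 21.5% were lower in each genotype, and 22.2% in the wild type and 24.7% in the mutant were higher. The signals of 5 tracheal probe sets, from another tissue lined with cuticle, summed to 54 to 100 and 249 to 311. Most of the lower tract sum was the uif probe set 1638227_at, at 229 and 220 in the wild type and 223 and 156 in the mutant. Of the 3 tested, 2 were called lower in each genotype, uif and vvl. btl was not called, at 41.6 and 46.7 in wild-type spermathecae against 32.4 and 3.7 in the lower tract. In the mutant btl read 20.6 and 25.2 against 41.1 and 37.9. The sums for 5 hindgut probe sets were 79.8 to 174 in spermathecae and 61.4 to 90.8 in the lower tract, and no marker of these lists was at 0. Of 6 tested hemocyte probe sets, 5 were lower and 1 higher in the spermathecae of each genotype. Of 7 for the fat body, 4 were lower in the wild type and 1 was higher in the mutant. Of 4 for the germline, 3 were lower and 1 higher in the wild type, and 1 went each way in the mutant. Of 2 for the midgut, 1 was higher in the wild type and 1 lower in the mutant. Of 4 for the eggshell, 1 was higher in the mutant. The part of these markers in the organ differences was not tested.

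The Hr39 mutation went with changes in a few cuticle genes of the spermathecae. Of the 45 tested, 7 were called in mutant against wild type, Cpr66Cb higher and Cpr62Bb, Cpr67Fb, Cpr65Aw, Cpr67B, Cpr56F and Cpr51A lower. Of all tested probe sets 7.93% were called, 4.04% higher and 3.89% lower. The median log2 difference over the 45 was -0.23 and over all tested probe sets 0.02. With no filter 6 of the 107 were called (5.61%), 1 higher and 5 lower, against 3.11% of all probe sets, 1.55% higher and 1.57% lower. Arrays of the genotypes did not overlap for 21 that were higher and 23 that were lower, which is 19.6% and 21.5% of the 107 against 21.6% and 21.1% of all.

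Cpr62Bb fell furthest. From 3631 and 2459 in wild-type spermathecae it came to 136 and 142 in the mutant, which is 20.9-fold lower (log2 -4.38, SE 0.269, limma adjusted p = 1e-05, 95% interval -4.99 to -3.78). The mutant arrays thus read as the lower tract arrays did, at 101 to 210. With each array left out in turn the log2 difference stayed between -4.67 and -4.10.

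Cpr66Cb rose. It read 64.3 and 90 in wild-type spermathecae and 833 and 814 in mutant spermathecae, which is 10.3-fold higher (log2 3.37, SE 0.247, limma adjusted p = 2.92e-05, 95% interval 2.82 to 3.92). In the lower tract it read 52.3 and 37.4 in the wild type and 38.1 and 32.9 in the mutant. Only the mutant spermathecae, of the 4 groups, held a value above 90. The mutant organs accordingly differed by 4.39 on the log2 scale, which is 21-fold.

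Cpr67Fb fell from 303 and 355 to 75.8 and 80.4 in the spermathecae, which is 4.04-fold lower (log2 -2.02, SE 0.307, limma adjusted p = 0.00321). Unlike Cpr62Bb it stayed above the lower tract arrays, which read 29.8 to 55.9. Cpr67B, the lower tract gene described above, fell from 598 and 742 to 250 and 346 (log2 -1.17, SE 0.182, limma adjusted p = 0.00367). Neither call was lost with any array left out.

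The other 3 falls were less firm. Cpr56F fell from 50.3 and 49.4 to 21.7 and 18.6 (log2 -1.16, limma adjusted p = 0.0157), and Cpr51A from 458 and 397 to 193 and 256 (log2 -0.93, adjusted p = 0.0244). Both calls were lost without wild-type spermathecae replicate 1 or either mutant spermatheca array, with adjusted p of 0.0592 to 0.112 and 0.0534 to 0.172. Cpr65Aw fell from 18 and 21.3 to 3.63 and 3.96 (log2 -1.60, adjusted p = 0.0315), values around and below the array median, and its call was lost with any 1 of the 8 arrays left out (0.0507 to 0.125) and with no filter (0.104). The groups of all 3 genes did not overlap.

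Cpr47Ee, Cpr62Ba and Cpr50Ca, which had organ calls in the wild type, were not called between the genotypes of the spermathecae, although both mutant arrays of each read below both wild-type arrays. Cpr47Ee differed by -0.25 on the log2 scale, with a 95% interval of -0.76 to 0.26, and Cpr62Ba by -0.42, with an interval of -1.03 to 0.18. Cpr50Ca read 62 and 46.8 in the wild type and 11.6 and 11.7 in the mutant (log2 -1.89), with a limma adjusted p of 0.0734. The interval of Cpr50Ca, -3.14 to -0.64, was wide.

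**Figure D3:**
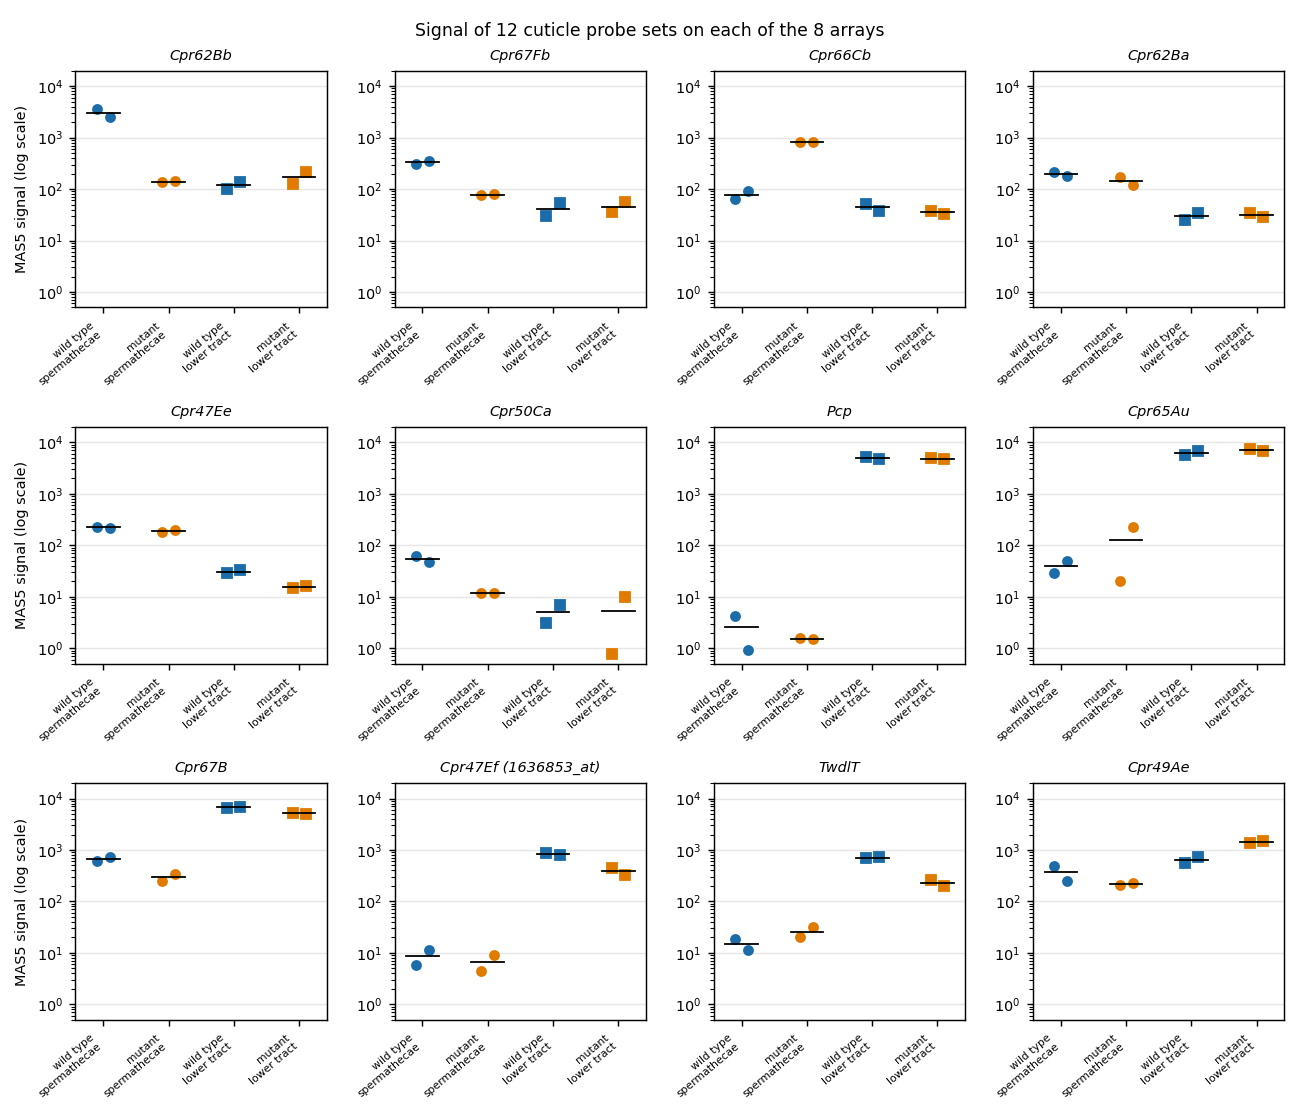
Signal on each array, on a log axis, for 12 cuticle probe sets in the 4 groups, with a point per array and a black bar at the mean of the 2 arrays. Cpr62Bb stands high in wild-type spermathecae alone, at 3631 and 2459, and Cpr66Cb in mutant spermathecae alone, at 833 and 814.

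Between the genotypes of the spermathecae, the summed muscle markers read 6054 and 6049 in the wild type and 6970 and 6940 in the mutant, the tracheal markers 100 and 83.6 against 54 and 72.8, and the hindgut markers 174 and 114 against 79.8 and 103. Single muscle markers were called within that sum. The Mf probe set 1635372_a_at rose from 319 and 268 to 1966 and 2187 (log2 2.81, limma adjusted p = 1.5e-05) and Act87E rose by 1.07, while the Mf probe set 1636600_a_at fell by 0.84 on the log2 scale. Besides Hr39, the other called markers were Lsd-1 of the fat body list (log2 0.75), dac of the hindgut list (-1.24) and alphaTry of the midgut list (-1.84). The dac probe set read 109 and 83.1 in the wild type and 34.9 and 41.7 in the mutant. It had the largest reading of the hindgut list on each spermatheca array. With 1 array left out in turn, the Lsd-1, dac and alphaTry calls were lost in 7, 5 and 8 of 8 fits. Those of Act87E and the Mf probe set 1636600_a_at were lost in 1 and 3. The spermathecal genes Send1 and lz read 18915 and 13277, and 156 and 175, in the wild type and 13764 and 18423, and 132 and 103, in the mutant. Their part in the cuticle differences was not tested. Without wild-type spermathecae replicate 1, the array with the high Gapdh ratio, 5 cuticle probe sets were called, 2 higher and 3 lower. Without mutant spermathecae replicate 2, 4 were called.

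Between the genotypes of the lower tract, 2 of the 45 tested were called, Cpr49Ae higher and TwdlT lower, where 5.8% of all tested probe sets were called, 2.47% higher and 3.33% lower. With no filter 2 of the 107 were called, 1 higher and 1 lower, against 2.28% of all probe sets, 0.911% higher and 1.36% lower. The lower one was again TwdlT, but the higher one was not Cpr49Ae. It was Cpr65Az, named here after its values were seen, which read 1.8 and 1.16 in the wild type and 16.2 and 12.6 in the mutant, below the array medians. Arrays did not overlap for 26 that were higher and 18 that were lower, against 22.4% and 19.2% of all. TwdlT fell from 702 and 715 to 261 and 203, which is 3.04-fold (log2 -1.61, SE 0.284, limma adjusted p = 0.00932). Cpr49Ae, a CPR gene of the run at 49A, rose from 560 and 736 to 1391 and 1479, which is 2.23-fold (log2 1.15, SE 0.269, adjusted p = 0.0348). The groups did not overlap for either gene.

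Both calls depended on single arrays. That of TwdlT was lost without wild-type lower tract replicate 1, the array with the high germline sum (adjusted p 0.0566), or without mutant lower tract replicate 1 (0.0659) or 2 (0.112). That of Cpr49Ae was lost without those same arrays or either mutant spermatheca array (0.0646 to 0.209). The Cpr49Ae call was also lost with no filter (adjusted p 0.0606) and with no variance trend (0.109). No cuticle probe set was called by limma without wild-type lower tract replicate 1 or either mutant lower tract array, though 8, 9 and 6 then had an unadjusted p below 0.05.

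Genes near the threshold in the lower tract went both ways. The Cpr47Ef probe set 1636853_at read 892 and 815 in the wild type and 442 and 324 in the mutant (log2 -1.16, limma adjusted p = 0.067), and Cpr49Ah 192 and 232 against 540 and 484 (log2 1.26, adjusted p = 0.0716). Neither passed the test. Pcp and Cpr67B had narrower intervals. The 95% interval of the mutant difference was -0.58 to 0.49 for Pcp and -0.79 to 0.02 for Cpr67B.

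Other tissues' markers in the lower tract read as follows in the wild type and then the mutant. The muscle sum was 61547 and 68891 against 77259 and 64946, and the tracheal sum 292 and 282 against 311 and 249. Of the 14 tested muscle probe sets 1 was called, higher, where 2.47% of all were higher. It was the Mf probe set 1635372_a_at, at 3512 and 4534 against 11668 and 9184 (log2 1.37, limma adjusted p = 0.00197). The Mf probe set 1636600_a_at overlapped. Gld, of the spermathecal list, was called lower, at 607 and 701 against 212 and 179 (log2 -1.73, adjusted p = 0.0113). That call was lost in 4 of 8 fits with 1 array left out. The fat body sum was 40914 and 40651 against 27636 and 27245, which was lower on both mutant arrays. Of its 7 tested probe sets 2 were called, both lower, apolpp (log2 -1.39) and Lsd-1 (log2 -0.96), where 3.33% of all were lower. Each call was lost in 3 of 8 fits with 1 array left out. Yp1, Yp2 and Yp3, which had the largest signals of that list, were not called. The hemocyte sum, 3065 and 3885 against 3916 and 3781, overlapped. Of its 6 tested probe sets 1 was called, higher, where 2.47% of all were higher. It was NimC1, which read 35.1 and 51.8 against 322 and 331. Hml was not called, although it read higher on both mutant arrays, at 300 and 355 against 564 and 579. The brightest of the list, the Pxn probe set 1640097_at and crq, overlapped between the genotypes. The median log2 difference of the 6 was 0.23. Their part in the cuticle differences was not tested.

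The effect of the mutation differed between the organs for 6 of the 45, tested as the interaction of genotype and organ, where 3.05% of all tested probe sets were called. In 2 of the 6 the difference was above 0 and in 4 below, against 1.76% and 1.29% of all. With no filter 3 of the 107 were called, 2 above and 1 below, against 1.15% of all probe sets, 0.607% above and 0.538% below. The mutant effect in the spermathecae minus that in the lower tract was -4.84 for Cpr62Bb (SE 0.381, limma adjusted p = 0.000182) and 3.66 for Cpr66Cb (SE 0.349, adjusted p = 0.000532). In the lower tract alone the mutant effect was 0.46 for Cpr62Bb (95% interval -0.14 to 1.06) and -0.29 for Cpr66Cb (-0.84 to 0.26). Both interactions were called with every array left out in turn, at an adjusted p of at most 0.0019 and 0.00741.

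The other 4 interactions were closer to the threshold. TwdlT (2.25, SE 0.402, limma adjusted p = 0.0159) fell in the mutant lower tract and read 19 and 11.3 against 20.2 and 31.7 in the spermathecae. Cpr67Fb (-2.16, adjusted p = 0.0277) fell in the spermathecae and read 29.8 and 52.8 against 35.4 and 55.9 in the lower tract. Cpr49Ae (-1.85, adjusted p = 0.0315) rose in the lower tract and read 490 and 253 against 210 and 224 in the spermathecae.

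Cpr62Bc (-2.38, limma adjusted p = 0.0425) was called in neither organ alone. It read 48.1 and 31.9 in wild-type and 14.8 and 11 in mutant spermathecae, but 20.6 and 18.7 in the wild-type and 55 and 34.3 in the mutant lower tract, so the groups moved apart in opposite directions. Its interaction was lost without any array but wild-type spermathecae replicate 2 (adjusted p 0.0821 to 0.232), and that of Cpr67Fb without any but wild-type lower tract replicate 2 (0.0511 to 0.133). That of Cpr49Ae was lost without any mutant array or wild-type lower tract replicate 1 (0.104 to 0.141), and that of TwdlT without either mutant lower tract array, wild-type lower tract replicate 1 or mutant spermathecae replicate 2 (0.0568 to 0.0986). With no filter on low values the interactions of Cpr67Fb (adjusted p 0.0517), Cpr49Ae (0.0539) and Cpr62Bc (0.14) were not called.

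**Figure D4:**
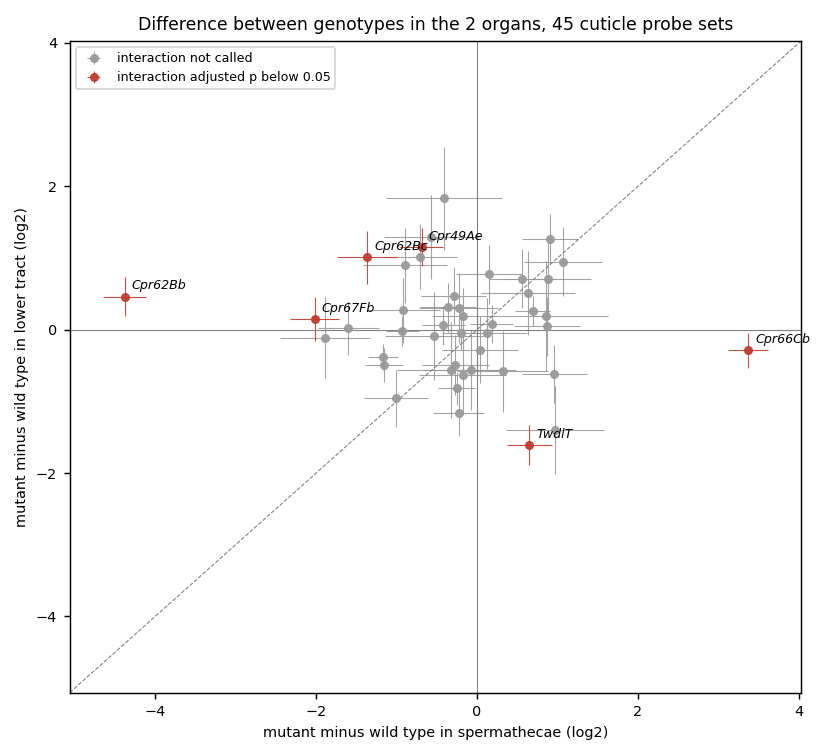
Mutant minus wild type, as the difference of log2(signal + 4), in the spermathecae on the x axis and the lower tract on the y axis, for the 45 cuticle probe sets tested, with bars of 1 SE. Red points are the 6 with a called interaction, and Cpr62Bb at -4.38 and Cpr66Cb at 3.37 lie farthest from 0 along the x axis.

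Cuticle genes lie in runs along the chromosomes, of which 15 were found in the release 6 annotation, used here for the order of genes only. At 62B on 3L, Cpr62Ba, Cpr62Bb and Cpr62Bc lie together, all 3 were tested and each was called in some comparison. Cpr62Ba and Cpr62Bb were higher in the spermathecae than the lower tract of the wild type, and in mutant spermathecae Cpr62Bb fell while Cpr62Ba was not called. Cpr62Bc was called higher in the mutant lower tract than in mutant spermathecae and was not called between the wild-type organs (log2 0.87, 95% interval 0.04 to 1.71).

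The longest run, of 18 genes at 65A from Lcp65Ag3 to Cpr65Az, had 12 probe sets, of which 6 were tested and 5 were called in some comparison. Every organ call in that run, for Acp65Aa, Cpr65Au, Cpr65Aw, Lcp65Ac and Lcp65Ag3, was higher in the lower tract. Cpr65Aw, Lcp65Ac and Lcp65Ag3 were tested only through lower tract groups, so for them the filter favoured that direction. Lcp65Aa, in the same run, was called in no comparison. Its probe set 1625866_at read 102 and 83.1 in wild-type and 137 and 165 in mutant spermathecae and 102 to 141 in the lower tract, while its other probe set, 1629340_s_at, was not tested.

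The run of 13 Tweedle genes from TwdlM to TwdlQ on 3R had 12 probe sets, 3 of them tested and 0 called by limma, with a smallest adjusted p of 0.116 and 1 unadjusted p below 0.05. The run of 8 genes from Edg84A to Ccp84Aa had 4 probe sets and none was tested. Over all runs and single genes, 28 of the 45 tested probe sets were called in some comparison. The other 17 read between 0.739 and 165, with a median of 24.6. Among them Cpr64Ab read 37.7 to 53.3 on all 8 arrays, and its mutant difference in the spermathecae had an interval of -0.43 to 0.78.

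Genes that make, shape and harden cuticle were read from lists drawn up beside the cuticle proteins. As with the cuticle genes, a listed or marker probe set tested only through 1 organ was favoured by the filter to be higher there. Of all tested probe sets, 22.2% were called higher and 21.5% lower in wild-type spermathecae against the lower tract. Of 8 tested probe sets for making chitin from sugar, 5 were called higher in the spermathecae than the lower tract of the wild type and 0 lower. Among them were Gfat1 (log2 2.41) and Gnpnat (log2 2.59 and 1.77, by different probe sets). Both are enzymes of the pathway to the sugar nucleotide that feeds both chitin and glycoproteins. Another Gfat1 probe set, 1635696_s_at, read 20.1 and 19.2 in wild-type spermathecae against 36.4 and 25.7 in the lower tract and was not called. In the mutant, against 24.7% higher and 21.5% lower of all, 5 were higher and 1 lower, which was kkv (log2 -2.34), the chitin synthase of epidermis and trachea. In the wild type kkv read 11.9 and 18.3 in the spermathecae against 25.9 and 29.7 in the lower tract and was not called. None of the 8 was called by limma between genotypes in either organ. The median difference between wild-type organs was 1.29 over the 8 and 0.07 over all tested probe sets.

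Of 14 probe sets for organising chitin, 0 were higher in wild-type spermathecae and 12 lower, against 22.2% and 21.5% of all tested probe sets. They included verm (log2 -5.39), a chitin deacetylase, and obst-E (log2 -3.12) and Gasp (log2 -2.37), chitin-binding proteins. Several of the 12 were tested only through the lower tract, among them verm, at 1.64 to 7.53 on the spermatheca arrays. For these the filter favoured the direction of the call. In the mutant 1 was higher and 13 lower, against 24.7% and 21.5%. Between genotypes 1 was called, in the lower tract, where 2.47% of all were higher. Cht10, a chitinase, rose in the mutant lower tract, from 16.6 and 8.66 to 82.1 and 82.3 (log2 2.42, limma adjusted p = 0.0115). That call was lost without either mutant lower tract array or wild-type lower tract replicate 2 (0.0539 to 0.126).

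Of 14 probe sets for hardening and colour, 3 were higher and 7 lower in the spermathecae than the lower tract of the wild type, against 22.2% and 21.5% of all tested probe sets. yellow-d, of the yellow family, was higher (log2 2.59), as was rk (log2 3.37), the receptor for the tanning hormone bursicon, while yellow-b was lower (log2 -2.10). Between genotypes in the spermathecae, 1 was higher and 3 were lower, against 4.04% and 3.89% of all. rk fell from 467 and 492 to 141 and 124 (log2 -1.83, SE 0.258, limma adjusted p = 0.00219), and t, the tan hydrolase of pigment synthesis, rose from 131 and 123 to 325 and 422 (log2 1.52, adjusted p = 0.000883). In the mutant lower tract 2 were higher and 1 lower, against 2.47% and 3.33% of all. They were amd (log2 2.49) and t (log2 0.78), higher, and rk (log2 -1.07), lower. The amd call was lost without any lower tract array. With 1 array left out in turn, the t and rk calls were lost in 4 and 8 of 8 fits.

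Of 8 probe sets for zona pellucida proteins of the apical matrix, 4 were lower in the spermathecae than the lower tract of the wild type and 0 higher, against 21.5% and 22.2% of all. Among them were zye (log2 -3.90) and pio (log2 -3.11). The zye probe set was tested only through the lower tract, with 1.2 to 8.17 on the spermatheca arrays. dpy, which encodes a giant protein that ties epithelia to cuticle, fell in mutant spermathecae from 1513 and 1629 to 567 and 650 (log2 -1.36, SE 0.183, limma adjusted p = 0.00159). No other probe set of the 8 was called there, where 4.04% of all were higher and 3.89% lower. In the mutant lower tract dpy fell too, from 1811 and 2583 to 1189 and 1325 (log2 -0.78, adjusted p = 0.035). There pio was higher (log2 0.74), against 2.47% higher and 3.33% lower of all. With 1 array left out in turn, these dpy and pio calls of the lower tract were lost in 5 and 4 of 8 fits. Of 9 probe sets for regulators of cuticle genes, 2 were higher and 1 lower in wild-type spermathecae, against 22.2% and 21.5% of all, the last being grh (log2 -2.00), a factor of epidermal barrier genes. Blimp-1, an ecdysone-induced repressor, rose in mutant spermathecae from 189 and 137 to 365 and 360 (log2 1.15, adjusted p = 0.00549), a call lost without either mutant spermatheca array (0.0513 to 0.0561).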

How the data were processed

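The deposited values are linear intensity values that MAS5 computed, as the submitters' processing notes name it, and the authors' values have the same trimmed mean on all 8 arrays. Samples were grouped by their labels. Probe sets were named from the platform annotation, where all 107 cuticle symbols are current, and release 6 of the genome gave gene order. Values were taken to log2 after adding 4. Probe sets at or above their array's median (50th percentile) on both arrays of at least 1 group entered a linear model with limma 3.58.1 under R 4.3.3 (eBayes with a variance trend, 4 group means, 4 residual and 5.75 prior degrees of freedom), which was tested on simulated data. The 5 comparisons were genotype in each organ, organ in each genotype, and their interaction. The cuticle genes and gene lists were chosen with earlier results of these data known. Called cuticle genes could be named, with values for up to 8 in each direction, and up to 3 called genes of each list per comparison by adjusted p. The replicate numbers did not pair samples: deviations of same-numbered arrays correlated at -0.032 to 0.026. Alternatives changed the normalization, pseudocount, filter, variance model, block and arrays used. The number of arrays limits the precision.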

Additional observations from a re-analysis of the deposited data

Results flagged for a closer look

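For 6 cuticle genes the mutant effect differed between the organs by the interaction test of the limma fit. The mutant effect in spermathecae minus that in the lower tract, in log2 units, was -4.84 for Cpr62Bb, 3.66 for Cpr66Cb, 2.25 for TwdlT, -2.16 for Cpr67Fb, -1.85 for Cpr49Ae and -2.38 for Cpr62Bc. In the spermathecae Cpr62Bb went from 3631 and 2459 to 136 and 142 and Cpr66Cb from 64.3 and 90 to 833 and 814. With 2 arrays per group no test for a stray array within a group was made.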

How the results depend on the processing

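Of 62 called differences of single cuticle genes, 0 changed direction under any alternative, and of their 1151 values 113 lost the call. The number of cuticle probe sets called for genotype in the lower tract went from 2 to 5 with a pseudocount of 20 or with the 4 compared arrays alone, and the cause was not tested. The organ calls went from 25 to 16 in the wild type and from 22 to 14 in the mutant with a filter at the 75th percentile, where 16 cuticle probe sets were tested. The interaction calls went from 6 to 3 with no filter. With 1 array left out, and the lone array of its group assumed to vary like the others, the counts were 4 to 8 for genotype in the spermathecae, 0 to 4 in the lower tract, 19 to 25 and 18 to 24 for the organs in wild type and mutant, and 2 to 5 for the interaction. The replicate number as a block gave 8, 2, 25, 23 and 6 calls and lost 1 of the calls above, the Cpr47Ef probe set 1627490_at between the mutant organs. The median of all differences between organs moved from 0.07 to 0.24 in the wild type and from 0.14 to 0.30 in the mutant with median centring, and to 0.18 in both with quantile normalization.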
